A study of Mus musculus with 8 samples.

Results

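The lipid-sensing PPAR receptors of muscle, their RXR partner receptors, the estrogen-related receptor ERR alpha, the PGC-1 coactivators and a pair of corepressors were followed as 10 genes chosen by name: Ppara, Ppard, Pparg, Rxra, Rxrg, Esrra, Ppargc1a, Ppargc1b, Ncor1 and Nrip1. Of these, 9 had a row among the 54091 rows of the expression table, and Ppard was not analysed here. RNA was sequenced from white quadriceps, the pale region of the large thigh muscle, in which fast glycolytic fibres prevail. All animals were males of 11 to 14 weeks, fed a diet with 60% fat during the last 7 days and harvested in the morning. Replicates 5 to 8 are the 4 knockout libraries, labelled CKM Cre with Acot2 knocked out in muscle, so that the promoter of muscle creatine kinase drives the recombinase in muscle cells and other cells of the tissue keep the gene. The 4 control libraries (replicates 1 to 4) carried the Loxp/Loxp genotype. Cre was named in the knockout mice only, so an effect of Cre and one of losing Acot2 cannot be told apart. Acot2 encodes a mitochondrial thioesterase, which releases fatty acids from their coenzyme A esters.

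PPAR receptors bind fatty acids and their derivatives and act on DNA as pairs with an RXR receptor, at a direct repeat of the hexamer AGGTCA. In muscle, PPAR alpha and PPAR delta drive genes of fatty acid uptake and oxidation, whereas PPAR gamma is best known as the master regulator of fat cells. ERR alpha binds an extended form of the same hexamer and controls genes of mitochondrial respiration. PGC-1 alpha and PGC-1 beta (Ppargc1a, Ppargc1b) are coactivators that bind these receptors and recruit the transcription machinery, while NCoR1 and RIP140 (Ncor1, Nrip1) are corepressors that act on the same receptors.

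The promoters of Ppara, Esrra and Ppargc1a are shown because these are the receptor with the largest difference between the groups, the gene with the highest level per length and the best-known coactivator, and each has 1 start in the RefSeq table (build GRCm38.p6). Each stretch holds the 250 bases before the start, read 5′ to 3′ on the strand of the gene. Ppara lies at chr15:85735526-85735775 on the plus strand, Esrra at chr19:6921809-6922058 on the minus strand and Ppargc1a at chr5:51567726-51567975 on the minus strand. The GENCODE M21 annotation starts Ppara further upstream, at base 85734983, so its stretch lies inside the gene there. Distances below refer to the RefSeq starts. Capitals mark, on either strand, the nuclear receptor hexamer AGGTCA, the cyclic AMP response core TGACG, the GC box GGGCGG, and GCATGCGC, part of the palindromic site of nuclear respiratory factor 1.
Ppara: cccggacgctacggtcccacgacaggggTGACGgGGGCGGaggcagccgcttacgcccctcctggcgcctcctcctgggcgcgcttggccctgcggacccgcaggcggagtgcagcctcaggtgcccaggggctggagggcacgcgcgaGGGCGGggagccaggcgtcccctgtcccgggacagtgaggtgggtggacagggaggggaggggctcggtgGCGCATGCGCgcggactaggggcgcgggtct
Esrra: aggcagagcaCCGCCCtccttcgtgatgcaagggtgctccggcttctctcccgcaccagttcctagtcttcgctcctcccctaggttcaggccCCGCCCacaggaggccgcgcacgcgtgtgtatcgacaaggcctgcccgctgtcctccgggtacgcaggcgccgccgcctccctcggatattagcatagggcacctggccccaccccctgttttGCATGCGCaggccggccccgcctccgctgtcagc
Ppargc1a: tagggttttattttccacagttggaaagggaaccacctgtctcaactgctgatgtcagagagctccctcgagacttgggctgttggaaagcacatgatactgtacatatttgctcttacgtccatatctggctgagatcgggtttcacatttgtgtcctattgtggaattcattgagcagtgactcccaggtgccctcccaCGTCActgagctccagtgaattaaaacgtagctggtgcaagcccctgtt
The Ppara and Esrra stretches are rich in G and C (76.4% and 68.4%), and the Ppargc1a stretch holds 48.0%. Both Ppara and Esrra carry GCATGCGC near the start, 22 to 31 bases before it in Ppara, where matches on both strands overlap, and 27 to 34 bases before it in Esrra. This stretch was found in 2.26% of the 32851 promoters of the table and was picked after these sequences were seen. Ppargc1a has the cyclic AMP core on the opposite strand, 45 to 49 bases before the start, and Ppara has it 218 to 222 bases before, against 17.8% of all promoters. GC boxes were found in 32.7% of all promoters and in those of Ppara and Esrra. AGGTCA was not among the letters of these 3 windows. It was found in 14.0% of all promoters, among them a window of Pparg, of Rxra and of Rxrg, which have several starts each. A match is a string of letters and not a shown binding site.

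The values below are normalized counts, that is, reads of a gene scaled by the size factor of its library. Recovered depth was 55283989 to 109101281 reads per library. Control replicates 3 and 4 were the deepest, at 85095803 and 109101281, and the other libraries had at most 74996047. The targeted gene matched the labels, as Acot2 fell to 324.8, 273.4, 256.4 and 354.0 in knockout replicates 5 to 8, against 2179.1, 3347.7, 4165.4 and 2166.2 in control replicates 1 to 4 (log2 difference -3.24 ± 0.20 (SE), limma, adjusted p = 4.72e-06). The 8 markers of fast skeletal muscle summed to between 12079398 and 13345209 in knockouts and between 10709466 and 13429589 in controls, so the labelled tissue matched its markers. Control replicates 3 and 4 stood apart from the other 6 libraries, with scores of -55.2 and -56.1 on a first principal component that held 34.5% of the variance, with knockouts at 19.5 to 38.6 and control replicates 1 and 2 at -0.6 and 3. They differed in the balance of short and long transcripts too. Genes in the top quartile of length had a median log2 deviation of -0.12 to -0.08 in the knockouts, and of -0.04, -0.04, 0.24 and 0.27 in control replicates 1 to 4. Knockout replicate 8 held heart transcripts, with the atrial myosin light chain Myl7 at 1124.4, against 0 in knockout replicates 5 to 7 and at most 4.14 in controls. Whether the libraries stem from different animals is not stated, and p-values reflect the spread among these libraries alone.

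Per kilobase of merged exons, the receptors other than the PPARs were the most abundant of the 9 genes, and Ppara was the least. Esrra averaged 3757 ± 275.6 normalized counts per kb in knockouts and 2985 ± 669 in controls (SD, n = 4 each). Rxra averaged 2711.8 ± 341.3 in knockouts and 3111.3 ± 221.7 in controls, and Rxrg, the RXR form typical of skeletal muscle, 2625.3 ± 177.9 and 2569.7 ± 278.9 in the same order. The order of these 3 was not fixed: Esrra lay above Rxra in 6 of 8 libraries and Rxra above Rxrg in 5 of 8. A clear step followed, since Rxrg lay above Ncor1 in 8 of 8 libraries, by 2.96 to 6.48 times.

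The corepressor Ncor1 averaged 455.4 ± 26.6 normalized counts per kb in knockouts and 607 ± 171.6 in controls. Ppargc1a, at 251 ± 38.9 in knockouts and 285.6 ± 36.5 in controls, was below Ncor1 and above Ppargc1b in every library. Ppargc1b averaged 158.2 ± 29.5 in knockouts and 132.7 ± 13.1 in controls. Pparg had 116.2 ± 57.5 in knockouts and 95.2 ± 19.6 in controls, Nrip1 61.4 ± 4.01 and 79.1 ± 23.4, and Ppara 29.9 ± 9.1 and 61.7 ± 29.8, knockouts first. These last 3 neighbours in the order changed places in at least 1 library each: Ppargc1b lay above Pparg in 7 of 8, Pparg above Nrip1 in 6 of 8 and Nrip1 above Ppara in 7 of 8. The ranks of the 9 genes were the same when the length of the longest coding transcript was used in place of merged exons.

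**Figure D1:**
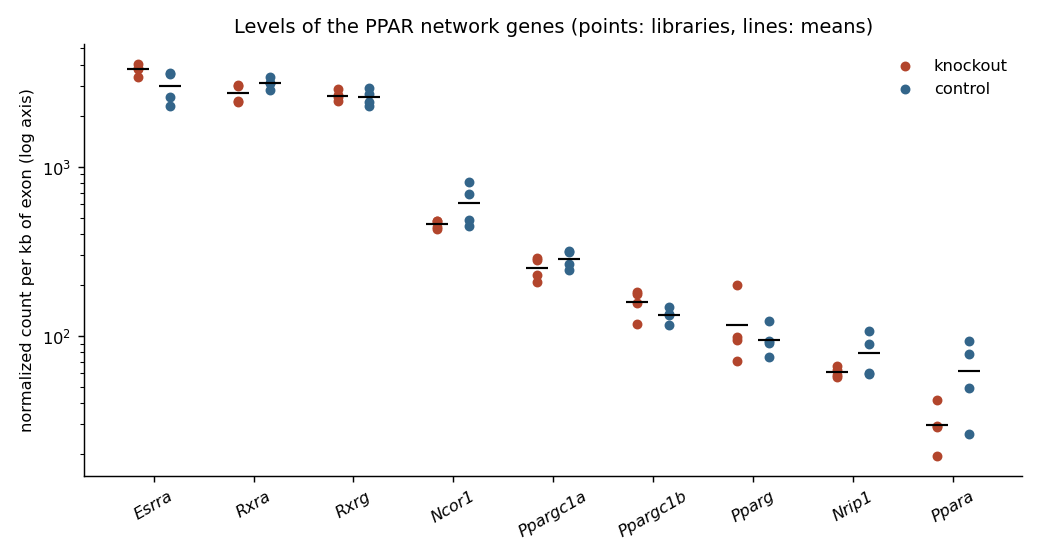
Normalized count per kb of merged exons (log axis) of the 9 genes, ordered by their mean over the 8 libraries, with knockout libraries left of control libraries; points are libraries and lines are group means. Esrra, Rxra and Rxrg form the upper set, from 2269 to 4050.3 per kb, and Ppara spans 19.4 to 92.8 per kb.

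None of the 9 genes passed the test between knockout and control. All were abundant enough to test, and with limma over 15657 genes and Benjamini-Hochberg adjustment at 0.05, 0 of 9 were called higher and 0 lower, against 0.00639% of all genes tested, which is Acot2 alone. By limma voom on recovered reads the count was also 0, as it was with the length and GC trend removed (0.0257% of all genes called) and with sample quality weights (7.67% of all genes called). At an unadjusted p under 0.05, 3 of 9 differed, with Ppara and Ncor1 lower and Esrra higher, against 26.9% of all genes tested (13.6% higher and 13.3% lower), a share near the 33.3% of the 9. Estimates were higher in 4 and lower in 5, with a median log2 difference of -0.19, against 0.00 over all genes tested, of which 50.3% had a higher estimate. By voom 3 of 9 were at that level too. In 0 of 9 did the 4 and 4 libraries separate, against 13.1% of all genes tested (6.06% higher and 7.06% lower). Without control replicates 3 and 4, 0 of 9 were at an unadjusted p under 0.05, against 7.98% of all genes tested. An exact permutation test of 4 against 4 cannot go below p = 0.0286.

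**Figure D2:**
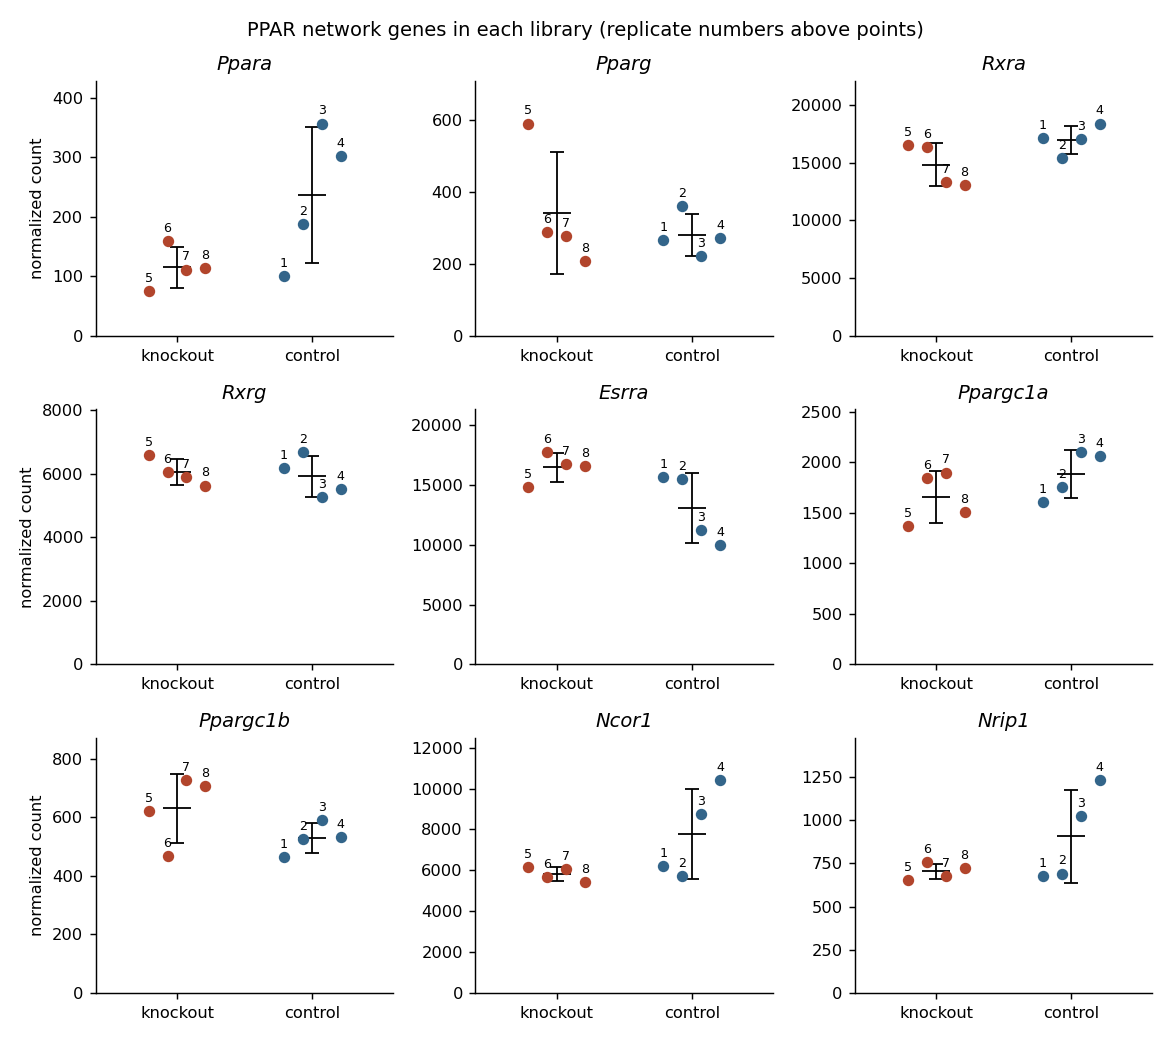
Normalized counts of the 9 genes in each library, knockout left of control, with the replicate number above each point; the bars give mean ± SD over 4 libraries. In Ppara, Ncor1 and Nrip1 control replicates 3 and 4 are the highest of the 8 libraries, in Esrra they are the lowest, and in Pparg knockout replicate 5 stands alone at 591.4.

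Ppara, the receptor that switches on fatty acid oxidation in fasting (GRCm38 chr15:85734983-85802819, plus strand), had the largest estimate of the 9 genes in size. Its normalized count was 74.7, 159.9, 111.5 and 113.5 in knockout replicates 5 to 8, against 101.3, 187.9, 356.4 and 301.4 in control replicates 1 to 4. All 4 knockouts lay below the control mean, but control replicate 1 lay below 3 of them, so the groups overlapped. The log2 difference was -0.93 ± 0.35 (SE), with a 95% interval of -1.69 to -0.18 and an adjusted p of 0.121 (limma). The exact two-sided permutation test gave p = 0.114. A difference at least this large was found in 5.33% of all genes tested. In bulk tissue, fewer cells of a type and less RNA per cell cannot be told apart.

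The size of the Ppara difference rested on the controls. Without control replicates 3 and 4 it was -0.31 ± 0.34 (SE, limma, adjusted p = 0.823). Without control replicate 1 it was -1.29 ± 0.29 and passed (adjusted p = 0.0337), in a fit that called 11.0% of all genes tested. With the length and GC trend of each library removed, the difference was -0.95 ± 0.37 (adjusted p = 0.151), as large as before. The gene was counted with 77 to 124 reads in knockouts and 96 to 444 in controls, and its level differed 4.77-fold between the lowest and the highest library, the widest range of the 9.

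Pparg, the fat cell receptor (chr6:115360951-115490399, plus strand), had normalized counts of 591.4, 290.2, 279.3 and 210.0 in knockout replicates 5 to 8, against 267.0, 360.7, 222.1 and 273.6 in control replicates 1 to 4. Knockout replicate 5 was the highest and knockout replicate 8 the lowest of all 8, and the groups overlapped. The log2 difference was 0.20 ± 0.27 (SE), with an interval of -0.39 to 0.78 (limma, adjusted p = 0.666), and it was -0.10 without knockout replicate 5. Transcripts of fat cells were set beside it. Adipoq, the adipocyte hormone adiponectin, had 3843.3, 1917.8, 1233.0 and 1773.9 in the knockouts and 1191.4, 3362.9, 1359.2 and 1793.5 in the controls. Plin1, the coat protein of large fat droplets, had 3732.7, 1552.8, 807.8 and 1417.4 in the knockouts and 1391.8, 2497.8, 1205.1 and 1374.7 in the controls.

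The libraries with the most Pparg, knockout replicate 5 and control replicate 2, were therefore also those with the most Adipoq and Plin1. The 7 white adipocyte markers together summed to 20300.7, 12174.0, 8351.7 and 17329.8 in knockout replicates 5 to 8 and 11695.3, 15863.7, 6639.5 and 10995.2 in control replicates 1 to 4, and none of the 7 was at 0. Knockout replicate 8 went the other way, with the second highest sum and the lowest Pparg. In that library the sum held 11474.7 of Cfd (adipsin), the highest of the 8 libraries. The part of adipocyte RNA in the Pparg values was not tested.

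**Figure D3:**
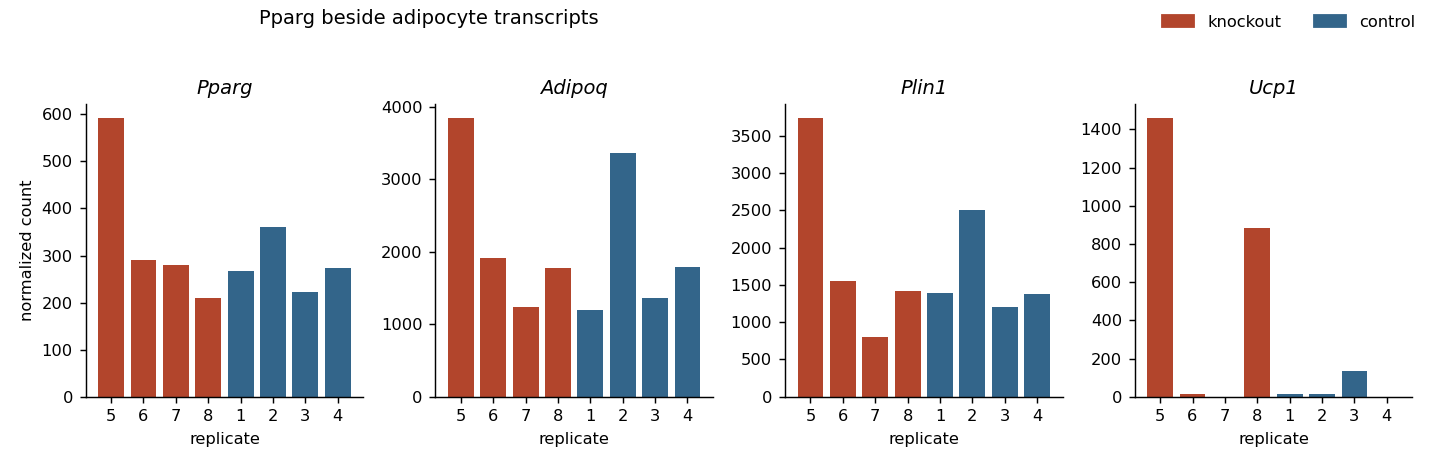
Normalized counts of Pparg and of the adipocyte genes Adipoq, Plin1 and Ucp1 in each library, knockout replicates 5 to 8 left of control replicates 1 to 4; each bar is 1 library. Pparg, Adipoq and Plin1 are highest in knockout replicate 5 and next highest in control replicate 2, and Ucp1 stands at 1458.2 and 885.1 in knockout replicates 5 and 8 and at 133.4 or less in the other libraries.

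The RXR genes varied little. Rxra (chr2:27676440-27762957, plus strand) had 16499.2, 16335.4, 13309.7 and 13081.0 in knockout replicates 5 to 8, against 17097.7, 15427.4, 17043.3 and 18382.2 in control replicates 1 to 4. Knockout replicates 7 and 8 lay below every control, and the other knockouts lay within the control range. The log2 difference was -0.20 ± 0.12 (SE), with an interval of -0.45 to 0.04 (limma, adjusted p = 0.267). Over all alternatives it stayed between -0.26 and -0.13, and without control replicates 3 and 4 it was -0.14 ± 0.12.

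Rxrg (chr1:167598384-167639623, plus strand) was the steadiest of the 9 genes, with a 1.27-fold range over the 8 libraries. Its normalized count was 6591.0, 6057.7, 5879.4 and 5624.2 in knockout replicates 5 to 8, against 6181.6, 6677.5, 5262.8 and 5519.6 in control replicates 1 to 4. The knockouts lay within the control range. Knockout minus control, the log2 difference was 0.03 ± 0.11 (SE), and the interval of -0.20 to 0.27 leaves room for a fold change between 0.87 and 1.21 (limma, adjusted p = 0.858). The sign turned without control replicates 3 and 4 (-0.09) and with the length and GC trend removed (-0.18). Rxrb, which completes the RXR family and is not among the 9 genes, differed by 0.19 ± 0.12 (limma, adjusted p = 0.298).

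Esrra (chr19:6910977-6921813, minus strand), of whose exon bases 3.7% overlap those of other genes, had normalized counts of 14860.6, 17780.6, 16734.2 and 16597.9 in knockout replicates 5 to 8, against 15684.0, 15528.2, 11243.3 and 9960.9 in control replicates 1 to 4. Knockout replicates 6 to 8 lay above every control, and knockout replicate 5 lay within the control range. The log2 difference was 0.36 ± 0.15 (SE), with an interval of 0.04 to 0.67 (adjusted p = 0.146 by limma; p = 0.0857 by the exact permutation test). Without control replicates 3 and 4, its lowest libraries, the difference was 0.08 ± 0.10 (limma, adjusted p = 0.853). With the length and GC trend removed it was 0.22 ± 0.12. Esrra has a GC content of 61.8% in its longest coding transcript, the highest of the 9 genes.

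Ppargc1a, the coactivator that exercise and cold induce (chr5:51454250-51567726, minus strand), had 1370.0, 1841.7, 1898.0 and 1507.7 in knockout replicates 5 to 8, against 1603.9, 1759.3, 2100.9 and 2063.7 in control replicates 1 to 4. Knockout replicates 5 and 8 lay below every control, and the other knockouts lay within the control range. Knockout minus control, the log2 difference was -0.19 ± 0.14 (SE), with an interval of -0.48 to 0.10 (limma, adjusted p = 0.384). It was -0.02 ± 0.11 with the length and GC trend removed and -0.04 ± 0.14 without control replicates 3 and 4.

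Ppargc1b, the related coactivator, had 621.5, 468.2, 726.5 and 708.1 in knockout replicates 5 to 8, against 464.3, 527.5, 591.8 and 534.3 in control replicates 1 to 4. In 3 of 4 knockouts the value was above every control, and knockout replicate 6 lay near the lowest control. This gave a log2 difference of 0.24 ± 0.16 (SE), with an interval of -0.10 to 0.58 (adjusted p = 0.347 by limma; p = 0.171 by the exact permutation test). It was no smaller without control replicates 3 and 4, at 0.33 ± 0.18 (limma, adjusted p = 0.667). Per kb, Ppargc1a was 1.33, 2.38, 1.58 and 1.29 times Ppargc1b in knockout replicates 5 to 8, against 2.09, 2.02, 2.15 and 2.34 times in control replicates 1 to 4. The ratio lay below every control in 3 of 4 knockouts and above every control in knockout replicate 6.

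Both corepressors were highest in control replicates 3 and 4. Ncor1 (chr11:62316426-62458541, minus strand) had 6150.0, 5651.6, 6086.8 and 5446.2 in knockout replicates 5 to 8, against 6202.6, 5736.9, 8764.4 and 10400.5 in control replicates 1 to 4. The knockouts lay beside control replicates 1 and 2, and 2 of them lay below every control. The log2 difference was -0.37 ± 0.17 (SE), with an interval of -0.73 to -0.02 (adjusted p = 0.168 by limma; p = 0.114 by the exact permutation test). It was -0.03 ± 0.10 without control replicates 3 and 4 and -0.11 ± 0.10 with the length and GC trend removed. Without control replicate 2 it was -0.51 ± 0.16 and passed (adjusted p = 0.0471), in a fit that called 13.1% of all genes tested.

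Nrip1 (chr16:76287400-76373827, minus strand) had 655.4, 757.1, 676.4 and 723.9 in knockout replicates 5 to 8, against 679.6, 691.3, 1023.6 and 1230.1 in control replicates 1 to 4. The knockouts again lay around control replicates 1 and 2. This amounted to a log2 difference of -0.32 ± 0.18 (SE), with an interval of -0.71 to 0.07 (limma, adjusted p = 0.265), and it was 0.03 ± 0.14 without control replicates 3 and 4. These genes have the longest merged exons of the 9, 12.81 kb in Ncor1 and 11.46 kb in Nrip1. Over 9 genes the estimate was smaller in size without control replicates 3 and 4 in 7, the exceptions being Rxrg and Ppargc1b.

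**Figure D4:**
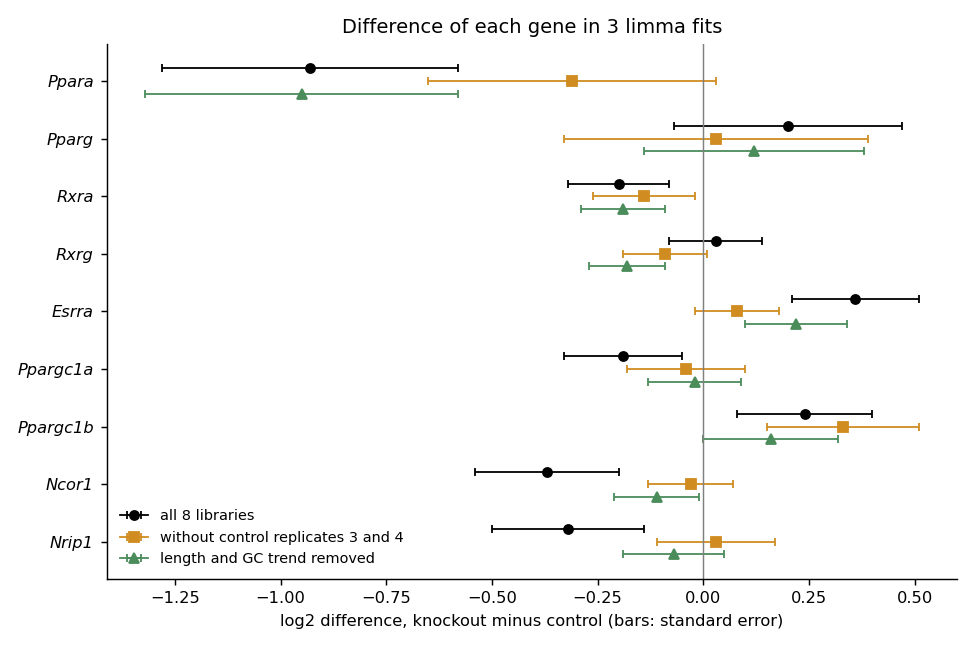
Log2 difference, knockout minus control, of the 9 genes with its standard error in limma fits to all 8 libraries, to the 6 libraries without control replicates 3 and 4, and with the length and GC trend of each library removed. The estimates of Esrra, Ncor1 and Nrip1 lie nearer 0 in both other fits, that of Ppara is -0.93, -0.31 and -0.95 in turn, and that of Ppargc1b is 0.24, 0.33 and 0.16.

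Ratios between partners, per kb, set the genes against each other within a library and were not tested. Esrra was 16.3, 14.5, 13.2 and 16.5 times Ppargc1a in knockout replicates 5 to 8, against 14.7, 13.2, 8.03 and 7.25 times in control replicates 1 to 4. Ppara was 0.097, 0.423, 0.307 and 0.415 times Pparg in the knockouts, against 0.292, 0.4, 1.23 and 0.846 times in the controls. In both ratios control replicates 3 and 4 stood beyond every other library, and control replicates 1 and 2 lay within the knockout range. Ppargc1a was 0.433, 0.633, 0.606 and 0.538 times its opponent Ncor1 in the knockouts, against 0.503, 0.596, 0.466 and 0.386 times in the controls, and 3.63, 4.23, 4.88 and 3.62 times Nrip1, against 4.1, 4.43, 3.57 and 2.92 times. The groups overlapped in each of these ratios. Within the RXR pair, Rxra was at 1.05, 1.14, 0.954 and 0.98 times Rxrg in the knockouts, against 1.17, 0.973, 1.36 and 1.4 times in the controls, where control replicates 3 and 4 again stood beyond every other library.

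For each gene the nearest pattern over the 8 libraries was sought among all genes tested, as the root mean square difference of log2 deviations from each gene's own mean. Esrra lay nearest to Tmed1 at 0.026, Ncor1 to Ago2, the argonaute protein of microRNA silencing, at 0.032, and Nrip1 to Tmtc1 at 0.04. Rxrg lay nearest to St6galnac6 at 0.043, Rxra to Gga3 at 0.047, Ppargc1a to Exoc5 at 0.062 and Ppargc1b to Nucb2 at 0.083. Pparg was nearest to the glutamine transporter gene Slc1a5 at 0.166, and next to the growth factor gene Nrg4 at 0.172. The second nearest gene is named here for Pparg and Ppara only. For Ppara the nearest were the predicted genes Gm8066 at 0.198 and Gm12043 at 0.204. These distances grow with the spread of the gene itself, whose SD on the log2 scale was 0.78 for Ppara, 0.47 for Pparg and 0.12 to 0.34 for the others.

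Genes that PPAR receptors switch on were measured through a list of 34, of which 33 were abundant enough to test. Their estimates were higher in 17 and lower in 16, with a median log2 difference of 0.01, against 0.00 over all genes tested. None was called by limma or voom. At an unadjusted p under 0.05, 2 of 33 were higher and 4 lower (6 by voom), against 13.6% higher and 13.3% lower of all genes tested. Acsl1, an acyl-CoA synthetase, had 19932.4, 20026.6, 18478.0 and 18389.8 in knockout replicates 5 to 8, against 21367.5, 26273.9, 38662.9 and 29272.3 in control replicates 1 to 4. All knockouts lay below all controls, as in 7.06% of all genes tested, and the log2 difference was -0.56 ± 0.15 (SE, limma, adjusted p = 0.0796). Fabp4, a fatty acid binding protein of fat cells and capillaries, differed by 0.75 ± 0.21 (limma, adjusted p = 0.0796). Without control replicates 3 and 4 Acsl1 was at -0.30 and Fabp4 at 0.41 (limma, adjusted p = 0.606 and 0.666). Other cells of the tissue express several of these targets. The 8 macrophage markers summed to 11897.9 to 19108.4 in knockouts and 7578.5 to 11690.2 in controls. Taken singly, 2 of the 8 had all knockouts above all controls, against 6.06% of all genes tested. All 8 had higher estimates, with a median log2 difference of 0.57, and 0 were called by limma. At an unadjusted p under 0.05 (limma) 7 of 8 were higher, against 13.6% of all genes tested. Without control replicates 3 and 4, 6 of 8 were at that level, against 7.98% of all genes tested. The 6 endothelial markers summed to 18120.6 to 20974.5 in knockouts and 19219.6 to 23358.0 in controls. None of the macrophage or endothelial markers was at 0. Their part in the list values was not tested. The textbook readouts Pdk4, Ucp3 and Angptl4, picked here by role after their values were seen, differed by -0.06 ± 0.20, -0.26 ± 0.23 and 0.42 ± 0.32. In the fit lacking control replicates 3 and 4, Pdk4 and Ucp3 turned to 0.29 and 0.13, and Angptl4 was at 0.74. Pdk4, the kinase that shuts pyruvate out of oxidation, had 54330.5, 56996.1, 46584.7 and 78957.1 in knockout replicates 5 to 8, against 44026.0, 50959.8, 80890.5 and 73587.9 in control replicates 1 to 4. Its highest values were in control replicates 3 and 4, as for Ppara, and in knockout replicate 8.

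Genes driven by PGC-1 and ERR numbered 22, all tested. Their estimates were higher in 11 and lower in 11, with a median of 0.02, and none was called by limma or voom. At an unadjusted p under 0.05, 4 of 22 were higher and 3 lower (7 by voom), against 13.6% higher and 13.3% lower of all genes tested. The estimates of Cox4i1 of cytochrome c oxidase and Ndufs3 of complex I were 0.68 ± 0.19 and 0.62 ± 0.19 (limma, adjusted p = 0.0796 and 0.0853). These were 0.28 and 0.26 without control replicates 3 and 4.

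Other coactivators and corepressors had mostly lower estimates. Of 21 listed, 20 were tested, with 4 higher and 16 lower and a median of -0.31. None was called by limma or voom, and at an unadjusted p under 0.05, 1 of 20 was higher and 8 lower (9 by voom), against 13.6% higher and 13.3% lower of all genes tested. In 6 of 20 all knockouts lay below all controls, against 7.06% of all genes tested. Carm1, an arginine methyltransferase that serves as a coactivator, had 2146.6, 1692.2, 1633.2 and 1438.1 in knockout replicates 5 to 8, against 2592.7, 2179.3, 3630.1 and 4460.2 in control replicates 1 to 4. Its log2 difference was -0.86 ± 0.20 (SE, limma, adjusted p = 0.0796), and 21.1% of its exon bases overlap exons on the opposite strand, whose reads may be mixed with it. The steroid receptor coactivators Ncoa3 and Ncoa2 differed by -0.52 ± 0.14 and -0.55 ± 0.15 (limma, adjusted p = 0.0796 each). With control replicates 3 and 4 left out, Carm1, Ncoa3 and Ncoa2 were at -0.48, -0.30 and -0.27. The median of this list was then -0.15, and with the length and GC trend removed it was -0.27. Perm1 and Pprc1, which act with or resemble PGC-1, differed by -0.07 ± 0.12 and -0.13 ± 0.12.

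Other nuclear receptors numbered 38, of which 28 were abundant enough to test. Estimates were higher in 11 and lower in 17, with a median of -0.15, and none was called by limma or voom. At an unadjusted p under 0.05, 0 of 28 were higher and 7 lower (7 by voom), against 13.6% higher and 13.3% lower of all genes tested. The median was -0.05 without control replicates 3 and 4, and 3 of 28 were at that level, against 7.98% of all genes tested. The retinoic acid receptor Rarb differed by -1.16 ± 0.29 (SE, limma, adjusted p = 0.0796), the orphan receptor Nr2c2 by -1.46 ± 0.41 (adjusted p = 0.081) and the thyroid hormone receptor Thrb by -0.35 ± 0.12 (adjusted p = 0.098). Nr2c2 had 183.2, 192.2, 129.2 and 136.7 in knockout replicates 5 to 8, against 236.4, 236.1, 815.5 and 802.4 in control replicates 1 to 4, so most of its difference came from control replicates 3 and 4, without which it was -0.58. Rarb was then at -0.67 and Thrb at -0.22. Of the exon bases of Rarb and Nr2c2, 38.4% and 31.2% overlap exons on the opposite strand, whose reads may be mixed with theirs. Esrrg, the ERR form of oxidative fibres, differed by -0.22 ± 0.18, and the 8 markers of slow and oxidative fibres summed to 74227 to 160553.7 in knockouts and 75759.9 to 238675.3 in controls.

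Kinases, deacetylases and factors that act on PGC-1 alpha numbered 23, all tested. Estimates were higher in 6 and lower in 17, with a median of -0.20, and none was called by limma or voom. At an unadjusted p under 0.05, 1 of 23 was higher and 9 lower (10 by voom), against 13.6% higher and 13.3% lower of all genes tested. In 7 of 23 all knockouts lay below all controls, against 7.06% of all genes tested. Mapk14, the p38 kinase that phosphorylates PGC-1 alpha, differed by -0.43 ± 0.11 (SE, limma, adjusted p = 0.0796), Cdc27, a subunit of a ubiquitin ligase, by -0.45 ± 0.12 (adjusted p = 0.0796) and Prkaa2, a catalytic subunit of the energy sensor AMPK, by -0.59 ± 0.18 (adjusted p = 0.081). Prkaa2 had 12653.8, 14041.4, 13610.1 and 12162.7 in knockout replicates 5 to 8, against 15547.6, 14878.1, 24168.5 and 27038.9 in control replicates 1 to 4. Without control replicates 3 and 4 Mapk14, Cdc27 and Prkaa2 were at -0.28, -0.27 and -0.22, and the median of the list was -0.10. With the length and GC trend removed that median was -0.08.

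**Figure D5:**
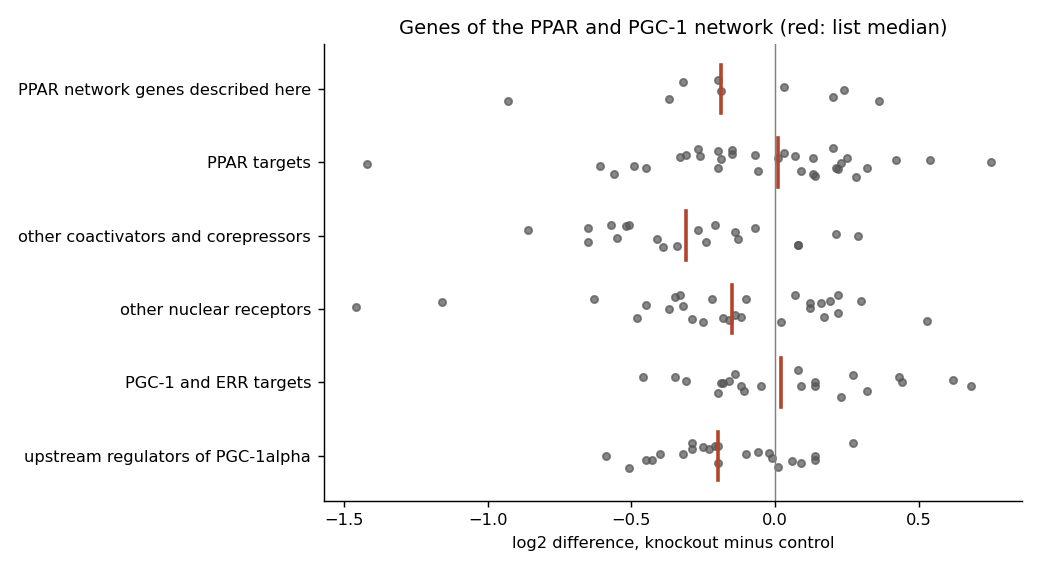
Log2 differences, knockout minus control, of the 9 genes and of the tested genes of each list (points), with the list median in red. Medians are 0.01 for PPAR targets and 0.02 for PGC-1 and ERR targets, and -0.31, -0.15 and -0.20 for other coactivators and corepressors, other nuclear receptors and upstream regulators of PGC-1 alpha.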

How the data were processed

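RNA sequencing of white quadriceps gave 8 libraries. The tools named in the submitters' processing notes are STAR, HTSeq, DESeq2, cutadapt and FastQC, with the build GRCm38. Their versions, the annotation and the strand setting are not stated. Values were deposited on a log2 scale. With the log2 undone and 1 subtracted, they are whole multiples of 1 step per library: of values from 1 to 1000 reads, 100% lay within 0.1 of a whole read. The form log2(reads over a size factor + 1) is thus inferred from the values. A floor of 3 reads is a normalized count of 2.04 to 3.87, for counting error only. Within groups, the chi-square per gene between libraries was 32.7 to 242, so none was a repeated library.

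The test was limma 3.58.1 (R 4.3.3) on log2(normalized count + 1), eBayes with trend and robust, for every gene whose mean reached 10 normalized counts, adjusted over all such genes. Alternatives changed the pseudocount, filter, scaling, variance model, weights, count model, trend removal and the libraries used. This scale understates the change of low genes. Lengths, GC content and exon overlap came from GENCODE M21 (GRCm38), and 15576 of 15657 tested genes had a length and GC value. The trend was removed per library by loess with a span of 0.5. Tables, permutation tests and plots were made in Python 3.11.15 (scipy 1.17.1, matplotlib 3.10.9). The members, gene lists and alternatives were chosen with earlier results of these data known. Named genes were the members, Acot2, the 3 of smallest p in each list and the nearest patterns, of which some are not reported here. Others are named for their role, and chosen after their values were seen.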

Additional observations from a re-analysis of the deposited data

Results flagged for a closer look

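Over 92 sets of 4 libraries, 4 held a library far from the other 3, its gap to the nearest being past Dixon's critical value at 95%, where chance flags about 1 in 20. Myl7 stood at 1124.4 and the atrial hormone gene Nppa at 1648.1 in knockout replicate 8, with the other knockouts at or near 0. Ucp3, the muscle uncoupling protein and a PPAR target, stood at 12981.7 in knockout replicate 8, against 7421.0 to 7908.7 in the other knockouts. Pprc1, a relative of the PGC-1 coactivators, stood at 881.2 in control replicate 2, below the other controls. None of the 9 genes described above was among them.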

How the results depend on the processing

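Over 22 alternatives, Ppara, Rxra, Esrra, Ppargc1a and Ppargc1b kept the direction of their estimates. Ppara ran from -1.29 to -0.31 and passed in 1 alternative, without control replicate 1 (adjusted p from 0.0337 to 0.844). Ncor1 passed in 1 alternative, without control replicate 2, and turned to 0.02 after trend removal combined with omission of control replicates 3 and 4, where Nrip1 was 0.08. Nrip1 was 0.03 without control replicates 3 and 4. Pparg was -0.10 to 0.39 and Rxrg -0.02 to 0.10 when single libraries were left out. Rxrg was -0.18 with the trend removed, -0.09 without control replicates 3 and 4 and -0.16 with both. The cause was not tested.

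Over all genes, 2 passed with no filter, 2 with equal totals, 7 without trend and robust options, 4 with the trend removed, 2 without knockout replicates 6 and 8 and 1201 with sample quality weights. Leaving out 1 library gave 1 to 2048 genes, with 1722 without control replicate 1 and 2048 without control replicate 2, and 0 to 1 of the 9 genes. The same omissions gave 0 to 5 PPAR targets, 0 to 4 PGC-1 and ERR targets, 0 to 9 other coactivators and corepressors, 0 to 4 other nuclear receptors and 0 to 4 upstream regulators. Sample quality weights gave 3, 3, 4, 2 and 4 in these lists in turn. Depth limits Ppara most, at 77 reads in its lowest library. No paired analysis was possible because the replicate numbers of the groups, 1 to 4 and 5 to 8, share none.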

Other observations

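Some transcripts of brown fat cells, in which PPAR gamma and PGC-1 alpha act together, were uneven among the knockout libraries. Ucp1, the uncoupling protein that makes heat in brown fat, had 1458.2, 16.8, 0 and 885.1 in knockout replicates 5 to 8, against 12.7, 12.1, 133.4 and 0 in control replicates 1 to 4. Cidea, a lipid droplet protein of brown fat, had 927.9, 181.9, 137.6 and 858.2 in the knockouts, against 129.8, 111.5, 252.8 and 116.1 in the controls. Both genes were high in knockout replicates 5 and 8, of which the first had the highest and the second the lowest Pparg value. The rest of the genes listed for brown fat cells differed from this. Cox8b had 33212.9, 39879.6, 39970.9 and 43634.1 in knockout replicates 5 to 8, so replicate 5 was the lowest knockout. It was abundant where Ucp1 was 0 too, at 39970.9 in knockout replicate 7 and 18023.9 in control replicate 4. Cox8b was thus not particular to brown fat cells in this tissue. Cpt1b ran from 11.5 to 40.7 in knockouts and from 50.7 to 84.2 in controls. Of the exon bases of Cpt1b, 81.4% overlap exons of other genes on the same strand. The effect of this overlap on its counts was not tested, so they are not read as its level in muscle. Elovl3 was low in all libraries, at 7.3 to 17.1 in knockouts and 4.07 to 13.3 in controls. Ucp1 and Cidea were chosen after their values were seen.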
